A study of Mus musculus with 6 samples.

Results

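The genes described here are 10 that cytotoxic lymphocytes use to find and kill target cells: Gzma, Gzmb, Gzmk, Prf1, Nkg7, Ncr1, Klrb1c, Klrk1, Ifng and Fasl. They were named as a list, and all 10 had a value among the 22180 genes measured. Each was read by the 1 probe set annotated to that gene alone; further probe sets that name a member together with another gene were not used. The study grew mouse colorectal cancer cells injected either into white adipose tissue, where the body stores most of its fat, or into non-adipose tissue. Tumours were taken at 1 to 1.5 cm3, from 3 mice per site, and each was hybridised to its own Affymetrix whole-transcript array. The labels of the samples used here give no mouse strain, cell line, age, fat depot or name for the non-adipose site, and describe no further treatment in either group. Values are log2 signals as the authors deposited them, so a difference of 1 is a 2-fold change.

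Cytotoxic T cells and natural killer (NK) cells kill mainly by releasing granules at the contact with a target cell. Perforin opens the way for granzymes, serine proteases that start cell death, and Fas ligand triggers a separate death receptor on the target. Activating receptors decide which target is attacked, and interferon gamma is the cytokine these cells secrete to alert macrophages and raise antigen presentation. In a whole tumour, fewer lymphocytes and less RNA per lymphocyte cannot be told apart.

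Promoter sequence was available for all 10 members in RefSeq's mouse build GRCm38.p6, as windows of 300 bases that run from 250 before to 50 after the annotated start. Each window was searched on both strands for GGTGTG, the core bound by T-box factors such as T-bet and Eomes, TGTGGT, the core bound by Runx factors, GGAAGT, an Ets core, and TGANTCA, the AP-1 site. No matches of different motifs overlapped in the member windows. The Runx core was present in 7 of the 10 member windows, against 16.8% of all 32851 windows available. The shares over all windows count every window of a gene, whereas each member was counted by 1 window, although Ncr1 had 2. The T-box core was present in 3 of 10 (19.0% of all windows), the Ets core in 4 of 10 (23.8%) and the AP-1 site in 2 of 10 (7.8%). Ifng held none of these letters in its window. A match is a description of the letters and shows no binding. The windows of Gzmb, Nkg7 and Klrk1 are shown because Klrk1 and Nkg7 varied most among the members from tumour to tumour and Gzmb encodes the granzyme that activates caspases. They lie at chr14:56262285-56262584 on the minus strand for Gzmb, chr7:43436888-43437187 on the plus strand for Nkg7 and chr6:129623815-129624114 on the minus strand for Klrk1. Each is written 5′ to 3′ on the gene's own strand, with every match in capitals.
Gzmb: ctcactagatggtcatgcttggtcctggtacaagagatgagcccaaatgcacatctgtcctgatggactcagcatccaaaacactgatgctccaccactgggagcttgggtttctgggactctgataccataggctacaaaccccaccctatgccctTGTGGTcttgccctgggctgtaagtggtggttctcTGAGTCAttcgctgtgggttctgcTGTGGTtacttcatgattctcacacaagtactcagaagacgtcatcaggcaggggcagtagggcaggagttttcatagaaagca
Nkg7: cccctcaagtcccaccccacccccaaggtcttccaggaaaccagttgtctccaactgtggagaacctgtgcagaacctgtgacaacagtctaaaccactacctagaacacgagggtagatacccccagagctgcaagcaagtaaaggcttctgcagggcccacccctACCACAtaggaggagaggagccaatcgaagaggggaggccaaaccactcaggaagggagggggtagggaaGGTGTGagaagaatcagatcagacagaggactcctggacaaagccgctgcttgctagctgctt
Klrk1: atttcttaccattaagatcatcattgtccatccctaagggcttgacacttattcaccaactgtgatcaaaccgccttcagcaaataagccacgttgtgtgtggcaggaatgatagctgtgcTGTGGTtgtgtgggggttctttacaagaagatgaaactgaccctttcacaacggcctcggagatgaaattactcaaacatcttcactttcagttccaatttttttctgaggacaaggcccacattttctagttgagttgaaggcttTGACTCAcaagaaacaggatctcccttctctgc
In Gzmb the capitals are a Runx core at -93, the AP-1 site at -58 and a second Runx core at -34, counted from the start to the first base of the match. In Nkg7 they are a Runx core on the other strand at -83 and a T-box core at -13, and in Klrk1 a Runx core at -129 and an AP-1 site at 18 bases after the start.

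The comparison of sites asks whether a fat-rich surrounding changed the cytotoxic genes of the tumour. None of the 10 members differed between white adipose and non-adipose tumours beyond the spread between tumours. Klrk1 had the largest difference, 0.44 on the log2 scale, and Nkg7 the smallest, 0.006. Limma called 0 of 10 members at an adjusted p of 0.05, against 0% of all genes; the members' adjusted p ran between 0.936 and 1.00, and across all genes the smallest was 0.936. At an unadjusted p under 0.05 there were 0 of 10 members, against 3.79% of all genes. The groups of arrays overlapped for every member, whereas they did not overlap for 7.31% of all genes. In white adipose tumours 6 of 10 members had the higher mean, against 49.8% of all genes. The median difference over the members was 0.032, and over all genes -0.00043. The members' median changed sign when single tumours were dropped: it was 0.16 without white adipose replicate 1, -0.046 when replicate 2 of that site was dropped and 0.019 when its replicate 3 was. Dropping non-adipose replicates 1, 2 and 3 in turn gave -0.006, -0.064 and 0.11. Two-sided exact permutation tests of single members gave p between 0.2 and 1, where 3 against 3 arrays cannot go below 0.1.

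**Figure D1:**
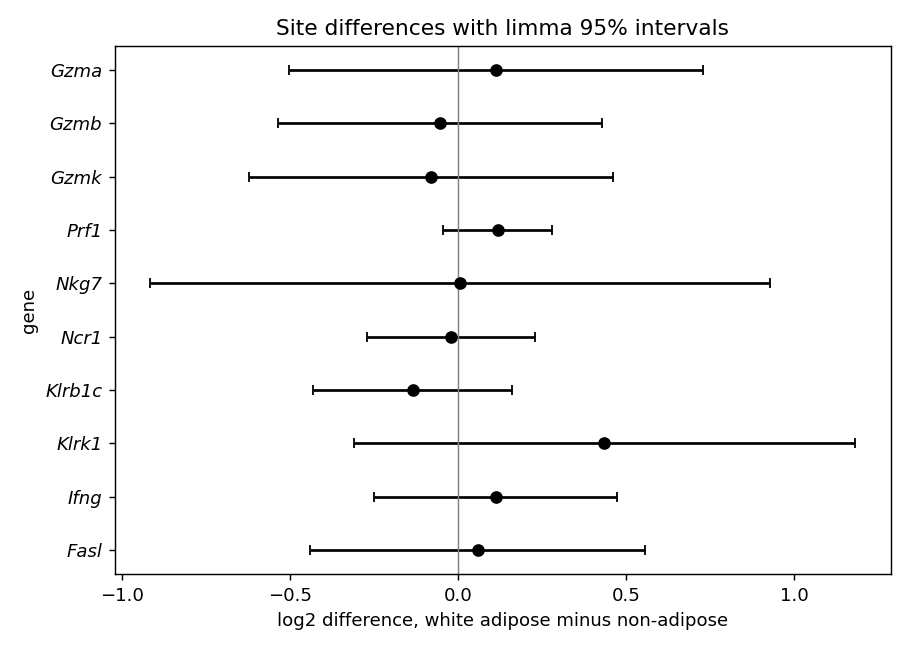
Log2 difference in signal, white adipose minus non-adipose, for each of the 10 genes (points), with limma's 95% confidence interval (bars, 3 arrays per site). Every interval includes 0; Prf1 and Ncr1 have the narrowest intervals, and Nkg7 and Klrk1 the widest.

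Granzyme B is the granzyme that cuts after aspartate and activates caspases in the target. Its gene Gzmb stood at 4.88, 5.46 and 4.99 in white adipose replicates 1, 2 and 3, against 5.24, 4.86 and 5.39 in non-adipose replicates 1, 2 and 3. White adipose replicate 2 was the highest of the 6 and non-adipose replicate 2 the lowest, so both ends of the range came from different sites. The difference was -0.054 (SE 0.20, adjusted p = 0.98). Its sign turned when 1 of 3 tumours was left out: the difference was 0.06 without white adipose replicate 1, 0.006 without white adipose replicate 3, and 0.059 once non-adipose replicate 3 was dropped.

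Granzymes A and K are trypsin-like granzymes that cut after basic residues, and their genes lie near each other on chromosome 13. Gzma was at 3.55, 4.06 and 4.0 in white adipose replicates 1 to 3, against 4.28, 3.52 and 3.47 in non-adipose replicates 1 to 3. Non-adipose replicate 1 alone lay above all white adipose tumours, and the other two non-adipose tumours lay below them. Gzma differed by 0.11 (SE 0.25, adjusted p = 0.967). Dropping non-adipose replicate 1 gave 0.38, dropping replicate 2 of that site -0.005 and dropping its replicate 3 -0.03. Gzmk was at 5.18, 5.81 and 5.94 in white adipose replicates 1 to 3, against 5.63, 5.55 and 5.99 in non-adipose replicates 1 to 3. The lowest Gzmk value was white adipose replicate 1 and the highest non-adipose replicate 3, an order unlike that of Gzma. Gzmk differed by -0.081 (SE 0.22, adjusted p = 0.974); dropping white adipose replicate 1 gave 0.15, and dropping non-adipose replicate 3 gave 0.051.

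Perforin, encoded by Prf1, is the pore-forming protein of the granule. Prf1 stood at 6.28, 6.32 and 6.30 in white adipose replicates 1 to 3, against 6.10, 6.17 and 6.28 in non-adipose replicates 1 to 3. The groups met only at 6.28, the value of both white adipose replicate 1 and non-adipose replicate 3. Prf1 was the steadiest member, with a range of 0.22 over the 6 arrays, and its difference of 0.12 (SE 0.067, adjusted p = 0.936, exact permutation p = 0.2) kept its sign whichever array was left out, between 0.076 and 0.16. The 95% interval ran from -0.045 to 0.28, so a change of up to 1.21-fold lay within it. This interval is for 1 gene and is not adjusted over all genes.

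Nkg7 encodes a granule membrane protein that helps cytotoxic granules to be released. It was at 6.34, 6.95 and 6.92 in white adipose replicates 1 to 3, against 6.36, 6.26 and 7.57 in non-adipose replicates 1 to 3. Non-adipose replicate 3 stood highest, white adipose replicates 2 and 3 next, and the remaining tumours together at the low end. The site means were almost equal, 6.74 ± 0.34 in white adipose and 6.73 ± 0.73 in non-adipose tumours (SD, n = 3 each), a difference of 0.006 (SE 0.38). That difference was -0.016 with array medians subtracted and -0.01 after quantile normalization, and 0.42 without non-adipose replicate 3. It was -0.10 and -0.084 when white adipose replicates 2 and 3 were dropped in turn, and -0.18 and -0.23 when the same was done with non-adipose replicates 1 and 2.

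**Figure D2:**
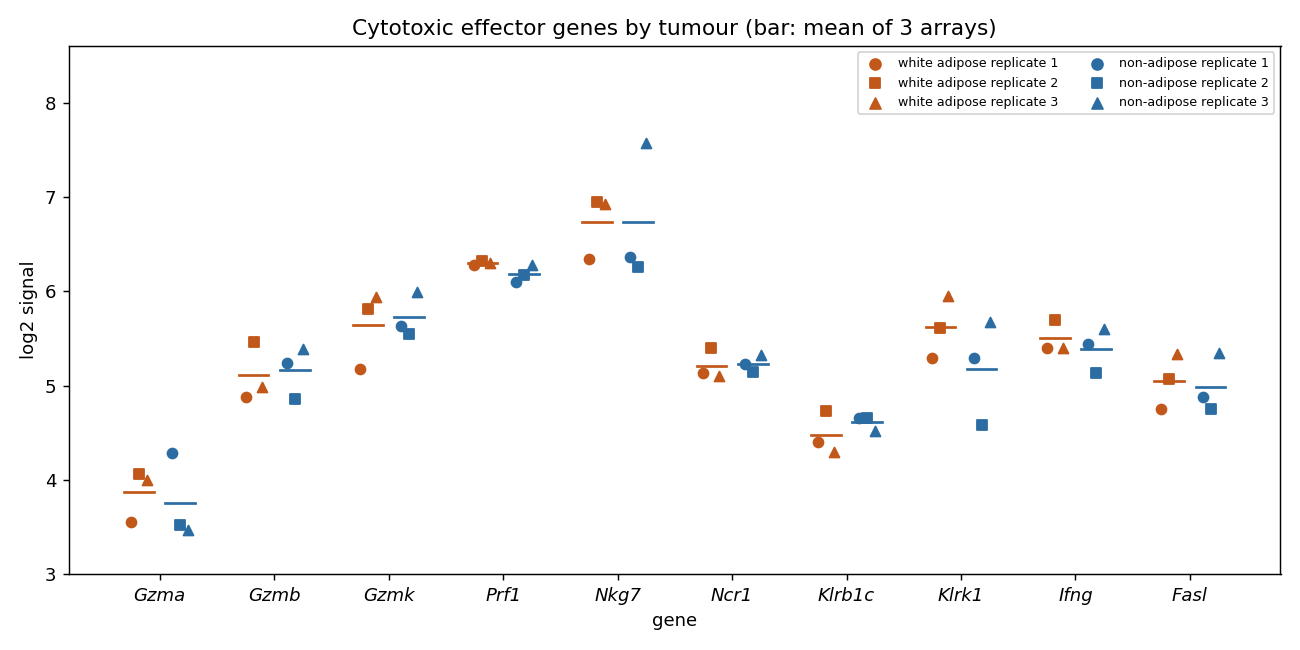
Log2 signal of the 10 genes in each tumour (points, shape by replicate number) with the mean of the 3 arrays of each site (horizontal bars); white adipose stands left of non-adipose. The sites overlap for each gene, and Nkg7 spreads from 6.26 to 7.57 within the non-adipose tumours alone.

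Receptors came next. Klrk1 encodes NKG2D, which recognises stress-induced ligands on tumour cells. Its signal was 5.29, 5.61 and 5.95 in white adipose replicates 1 to 3, against 5.29, 4.58 and 5.67 in non-adipose replicates 1 to 3. Non-adipose replicate 2 lay far below the other 5 tumours, which together covered 5.29 to 5.95. Klrk1 averaged 5.62 ± 0.33 in white adipose and 5.18 ± 0.55 in non-adipose tumours (SD, n = 3 each), 1.35-fold higher, with a difference of 0.44 (SE 0.31, adjusted p = 0.936, exact permutation p = 0.5). This shrank to 0.14 without non-adipose replicate 2 and grew to 0.68 without non-adipose replicate 3. Its 95% interval ran from -0.31 to 1.18, so a change of up to 2.27-fold lay within it.

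Ncr1 encodes NKp46, a receptor of NK cells and related innate lymphocytes. Ncr1 was at 5.13, 5.40 and 5.10 in white adipose replicates 1 to 3, against 5.23, 5.14 and 5.32 in non-adipose replicates 1 to 3. The values lay within 0.30 of each other, with white adipose tumours at both ends. The difference was -0.021 (SE 0.10; 95% interval -0.27 to 0.23), and it became 0.021 and 0.033 when white adipose replicates 1 and 3 were dropped in turn, and 0.023 when non-adipose replicate 3 was. Klrb1c encodes NK1.1, the NK cell marker of some mouse strains; the strain is not given in the sources used here, and whether the probe set reads the gene in these mice was not tested. Klrb1c was at 4.40, 4.73 and 4.30 in white adipose replicates 1 to 3, against 4.66, 4.66 and 4.52 in non-adipose replicates 1 to 3. White adipose tumours again held both the highest and the lowest value. Klrb1c differed by -0.14 (SE 0.12, adjusted p = 0.936). Dropping white adipose replicate 2 gave -0.26, the 1 member value in any alternative at an unadjusted p under 0.05, with an adjusted p = 0.985. Dropping replicate 3 of that site gave -0.048.

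Interferon gamma and Fas ligand are the secreted and the membrane-bound effectors. Ifng was at 5.40, 5.70 and 5.40 in white adipose replicates 1 to 3, against 5.44, 5.13 and 5.60 in non-adipose replicates 1 to 3. It was highest in white adipose replicate 2 and lowest in non-adipose replicate 2. Ifng differed by 0.11 (SE 0.15, adjusted p = 0.943), and by -0.018 without non-adipose replicate 2. Fasl was at 4.75, 5.07 and 5.33 in white adipose replicates 1 to 3, against 4.88, 4.75 and 5.34 in non-adipose replicates 1 to 3. White adipose replicate 3 and non-adipose replicate 3 were level at the top, and white adipose replicate 1 and non-adipose replicate 2 level at the bottom. Fasl differed by 0.058 (SE 0.20, adjusted p = 0.978); dropping white adipose replicate 3 gave -0.081, and dropping non-adipose replicate 2 gave -0.062.

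Of the 10 members, 8 varied more over the 6 tumours than the median gene. The median member ranged over 0.59 on the log2 scale from its lowest to its highest array, against 0.35 for the median of all genes. Klrk1 ranged over 1.37 and Nkg7 over 1.30, which placed them at percentiles 97.8 and 97.5 of all genes. Gzma (0.81) and Gzmk (0.80) followed at percentiles 91.4 and 91.2. Only Prf1 (0.22) and Ncr1 (0.30) ranged less than the median gene. Within a site the median SD of the members was 0.30, against 0.13 for all genes. By mean signal the members lay between percentile 11.6 (Gzma) and 61.6 (Nkg7) of all genes. No detection call was used, so values of the dim members may be background. The dimmest were Gzma, Klrb1c (percentile 21.4), Fasl (30.75) and Gzmb (33.31), which the filter on dim genes among the alternatives removed. Ncr1 (35.15), Klrk1 (39.06), Ifng (40.01) and Gzmk (45.05) lay higher, and whether their signal exceeded background was not tested either. Probe sets differ in brightness, so these percentiles give no order of abundance.

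**Figure D3:**
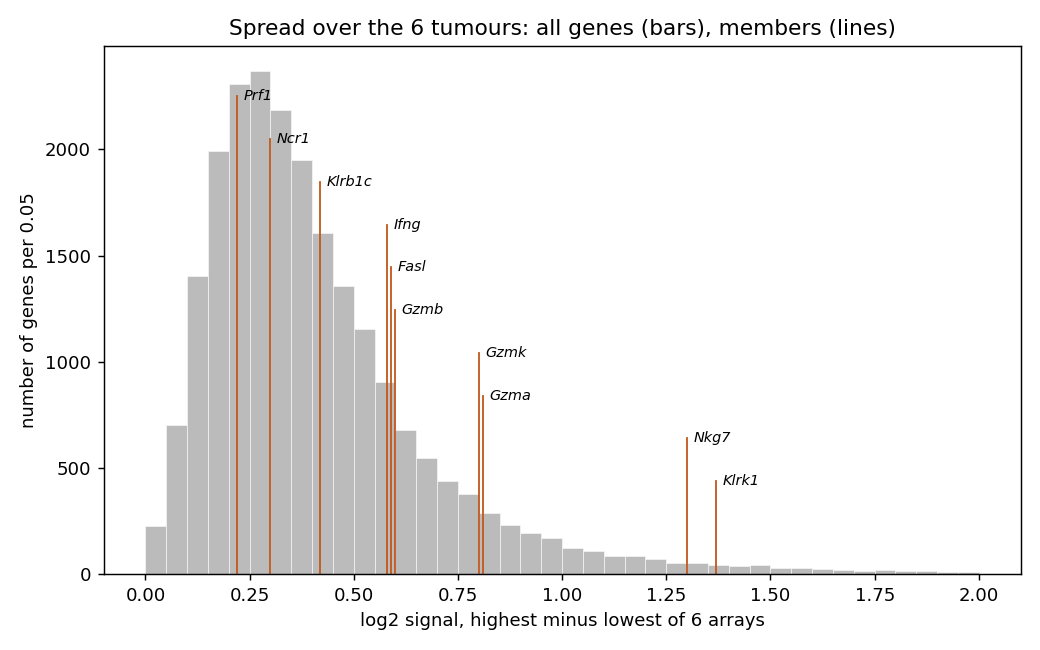
Number of genes (grey bars, bins of 0.05) by the spread of their log2 signal over the 6 arrays, highest minus lowest, with the 10 members as orange lines whose height has no meaning; 179 genes at 2 or more are not drawn. Klrk1 and Nkg7 lie in the upper tail, and Prf1 and Ncr1 left of the middle of the distribution.

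The same tumours were high or low for most members, and these were not the tumours of 1 site. White adipose replicate 2 lay above a gene's own median over the 6 arrays for 10 of 10 members, non-adipose replicate 3 for 7 and white adipose replicate 3 for 6. Non-adipose replicate 1 did so for 5, non-adipose replicate 2 for 1 and white adipose replicate 1 for 0. Over all genes the share above a gene's own median was between 42.6% and 46.9% in every array. Not every member followed this order. Gzma was highest in non-adipose replicate 1 and lowest in non-adipose replicate 3. Klrb1c was higher in non-adipose replicate 2 (4.66) than in non-adipose replicate 3 (4.52). Prf1 was lowest in non-adipose replicate 1 (6.10), and Ncr1 (5.10) and Klrb1c (4.30) were lowest in white adipose replicate 3. Averaged over the 10 members, the signal was 5.12, 5.51 and 5.42 in white adipose replicates 1 to 3, against 5.31, 5.06 and 5.52 in non-adipose replicates 1 to 3. Each site thus held both a low tumour (white adipose replicate 1, non-adipose replicate 2) and a high one (white adipose replicate 2, non-adipose replicate 3). The site means of this average were 5.35 ± 0.21 in white adipose and 5.30 ± 0.23 in non-adipose tumours (SD, n = 3 each).

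Within the members the pattern was not uniform. Over the 6 arrays, Gzmb was most like Ncr1 (Pearson r = 0.94) and Ifng (r = 0.88). Fasl was most like Nkg7 (r = 0.90), Gzmk (r = 0.90) and Klrk1 (r = 0.84). These were the highest of all pairs. Other pairs were negative, among them Klrb1c with Klrk1 (r = -0.49) and with Prf1 (r = -0.41). The highest r of Gzma with any member was 0.36, with Gzmb. These are descriptions over 6 arrays, whose points share the arrays and their scaling. Outside the members, the 5 genes closest to the members' average were Ctsz, a lysosomal cathepsin (r = 0.997), AB124611 (r = 0.993), Foxred2 (r = 0.989), Cd52, a surface glycoprotein of lymphocytes and other leukocytes (r = 0.986), and the predicted gene Gm5955 (r = 0.984). Cd52 was at 8.67, 9.11 and 9.08 in white adipose replicates 1 to 3, against 8.95, 8.51 and 9.17 in non-adipose replicates 1 to 3. These 5 were taken as the highest r among all other genes, so their r is set by the choice and supports nothing further.

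Averages of the T cell and pan-leukocyte markers had non-adipose replicates 2 and 3 at their extremes, while single markers and the B cell markers had other orders. T cell markers, 11 of 13 measured, averaged 6.15, 6.41 and 6.32 in white adipose replicates 1 to 3, against 5.94, 5.76 and 6.68 in non-adipose replicates 1 to 3. Cd8a, the CD8 coreceptor of cytotoxic T cells, was at 6.15, 6.49 and 6.26 in white adipose replicates 1 to 3, against 5.73, 4.98 and 7.15 in non-adipose replicates 1 to 3. Non-adipose replicates 2 and 3 were thus the extremes of Cd8a, 2.17 apart, with all white adipose tumours between them. Cd3e, of the T cell receptor complex, differed by 0.23 (SE 0.44), and 0 of 11 T cell markers were at an unadjusted p under 0.05, with 7 of them higher by mean at the white adipose site and 4 lower. Pan-leukocyte markers averaged 8.08, 8.29 and 8.33 in white adipose replicates 1 to 3, against 8.34, 8.04 and 8.48 in non-adipose replicates 1 to 3, and Ptprc (CD45) differed by -0.034 (SE 0.24). In that list 1 of 4 genes was higher, and Cd53, a leukocyte tetraspanin at -0.27 (SE 0.11), was the 1 gene at an unadjusted p under 0.05. Macrophage markers (5 of 8 higher, median 0.015) averaged from 9.10 to 9.26 in white adipose and 9.24 to 9.34 in non-adipose tumours.

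**Figure D4:**
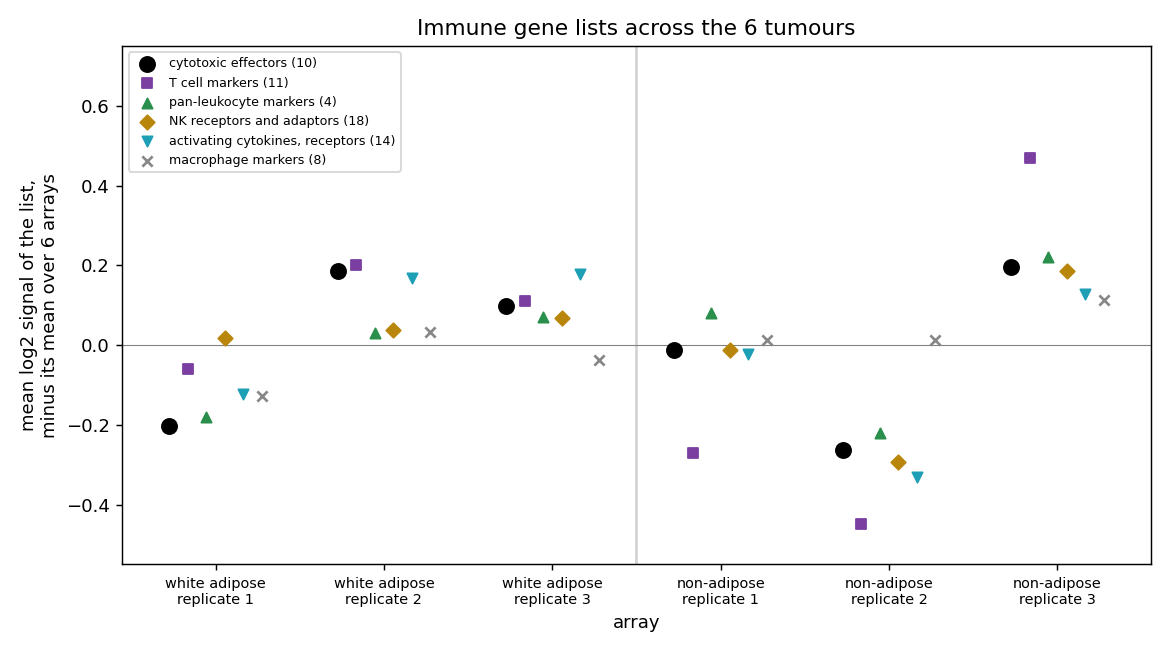
Mean log2 signal of 6 gene lists in each array, minus the list's mean over the 6 arrays (white adipose on the left; number of genes in the legend). The cytotoxic effectors (black) are lowest in white adipose replicate 1 and non-adipose replicate 2, where the pan-leukocyte markers are lowest too, and highest in white adipose replicate 2 and non-adipose replicate 3; the macrophage markers span the narrowest range.

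The rest of the granule pathway also showed no gene past the threshold. Other granzymes had 3 higher and 3 lower means of 6 measured, with Gzmm, expressed in NK cells, at 0.17 (SE 0.11), Gzmn at 0.18 (SE 0.14) and Gzmc at -0.23 (SE 0.27); their median difference was 0.084. The array means of the other granzymes ran from 4.17 to 4.51 in white adipose and 4.16 to 4.32 in non-adipose tumours, highest in white adipose replicate 1, where the members' average was low. Of 12 genes of granule maturation and exocytosis, 7 were higher and 5 lower, with a median of 0.025. Stxbp2, which acts in the fusion of granules with the membrane, differed by 0.23 (SE 0.085, adjusted p = 0.936) and was the 1 gene of this list at an unadjusted p under 0.05. It was at 8.64, 8.75 and 8.79 in white adipose replicates 1 to 3, against 8.42, 8.43 and 8.64 in non-adipose replicates 1 to 3. Srgn, the proteoglycan that packs granzymes, differed by -0.17 (SE 0.12). Among 8 serpin genes listed as granzyme inhibitors 4 were higher and 4 lower (median 0.009). Whether each of them inhibits a granzyme was not tested. Serpinb9, the inhibitor of granzyme B, was at -0.19 (SE 0.14) and Serpinb9e at 0.34 (SE 0.23). Serpinb9g, at -0.49 (SE 0.19), was the 1 gene of this list at an unadjusted p under 0.05. Serpinb9g was at 1.97, 1.93 and 1.99 in white adipose replicates 1 to 3, against 2.28, 2.91 and 2.16 in non-adipose replicates 1 to 3, with no overlap, and lay at percentile 1.78 of all genes by signal.

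Receptors and their ligands were measured beside Klrk1 and Ncr1. Of 18 NK receptors and adaptors 13 were higher and 5 lower in white adipose tumours, with a median of 0.10 and 0 at an unadjusted p under 0.05. Crtam, a receptor of activated cytotoxic cells, was at 0.23 (SE 0.11), Klrd1 at 0.27 (SE 0.24) and Cd244a at -0.39 (SE 0.21). This list averaged 5.41 to 5.46 in white adipose tumours, against 5.10 to 5.58 in non-adipose tumours, lowest in non-adipose replicate 2 and highest in non-adipose replicate 3. Of the NKG2D ligands 3 of 8 were measured by a probe set of their own. H60c differed by 0.56 (SE 0.45) and stood at 6.27, 4.60 and 4.60 in white adipose replicates 1 to 3, against 4.50, 4.69 and 4.60 in non-adipose replicates 1 to 3. White adipose replicate 1 alone was high, and in that tumour the skin epithelial markers averaged 9.32. Ulbp1 was at -0.15 (SE 0.15).

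Eomes, a T-box factor of NK and memory CD8 T cells, differed by -0.35 (SE 0.099, adjusted p = 0.936, exact permutation p = 0.1), and its groups did not overlap. Eomes was at 4.61, 4.89 and 4.88 in white adipose replicates 1 to 3, against 5.13, 5.23 and 5.06 in non-adipose replicates 1 to 3, which placed every white adipose tumour below every non-adipose one. It was the 1 of 7 lineage transcription factor genes at an unadjusted p under 0.05, and lay at percentile 29.5 of all genes by signal. Tbx21, which encodes T-bet, was at 0.074 (SE 0.067) and Prdm1, which encodes Blimp-1, at 0.13 (SE 0.069, exact permutation p = 0.1). Prdm1 was at 6.52, 6.41 and 6.41 in white adipose replicates 1 to 3, against 6.35, 6.23 and 6.37 in non-adipose replicates 1 to 3, so its groups did not overlap either, in the opposite direction to Eomes. Of the 7 genes 2 were higher and 5 lower, with a median of -0.12. Of 14 activating cytokines and their receptors 10 were higher and 4 lower (median 0.14), with Il18r1 at 0.47 (SE 0.28), Il2ra at 0.44 (SE 0.29) and Il2rb, the receptor chain shared by IL-2 and IL-15, at 0.32 (SE 0.38). Il2rb was at 5.96, 6.79 and 6.82 in white adipose replicates 1 to 3, against 6.18, 5.58 and 6.85 in non-adipose replicates 1 to 3, high and low in the same tumours as the members' average. None of these receptor genes was at an unadjusted p under 0.05.

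Downstream of Ifng, 2 genes of receptor and signalling were higher and 4 lower of 6 measured (median -0.038), with the receptor chain Ifngr1 at -0.12 (SE 0.058) and the kinase Jak1 at -0.061 (SE 0.062). Of 10 interferon gamma target genes 6 were higher and 4 lower (median 0.061). Cxcl10, a chemokine that draws T and NK cells, differed by -0.81 (SE 0.22, adjusted p = 0.936, exact permutation p = 0.1) and was the 1 target at an unadjusted p under 0.05. Cxcl10 stood at 8.77, 8.85 and 8.81 in white adipose replicates 1 to 3, against 10.11, 9.24 and 9.51 in non-adipose replicates 1 to 3, with no overlap. Cxcl9, which acts on the same receptor, differed by 0.62 (SE 0.55), with 10.33, 11.36 and 11.40 in white adipose replicates 1 to 3, against 11.04, 9.26 and 10.92 in non-adipose replicates 1 to 3. Cxcl9 thus was lowest in non-adipose replicate 2 and next lowest in white adipose replicate 1, the low tumours of the members' average. Within each site Cxcl10 was lowest in the same tumours, white adipose replicate 1 and non-adipose replicate 2. Across the sites its order differed, because every white adipose tumour lay below every non-adipose one. Nos2, the inducible nitric oxide synthase, was at -0.63 (SE 0.36).

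On the receiving side of Fasl, the receptor gene Fas differed by 0.005 (SE 0.27), at 9.71, 8.83 and 9.12 in white adipose replicates 1 to 3, against 9.50, 8.83 and 9.32 in non-adipose replicates 1 to 3. Of 9 genes of the Fas and caspase pathway 4 were higher and 5 lower (median -0.026), with Dffa, the inhibitor of the caspase-activated nuclease, at 0.13 (SE 0.077) and the nuclease Dffb at -0.084 (SE 0.065). Of 5 other death ligands and receptors 1 was higher, Tnfrsf1a at 0.13 (SE 0.066), and 4 lower, among them Tnf at -0.26 (SE 0.18). In neither list was a gene at an unadjusted p under 0.05.

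Markers of other cells moved between the tumours too. All 5 measured skin epithelial markers were higher in white adipose replicate 1, which averaged 9.32, than in any other tumour; white adipose replicates 2 and 3 averaged 5.25 and 5.37, and non-adipose replicates 1 to 3 averaged 5.42, 5.33 and 6.0. Mast cell markers averaged 6.48, 4.97 and 4.92 in white adipose replicates 1 to 3, against 5.76, 5.15 and 4.92 in non-adipose replicates 1 to 3. Their mean was higher in white adipose tumours for 7 of 7 genes, and the list was also highest in white adipose replicate 1. That tumour had the lowest members' average of its site; without it the median difference of the members was 0.16. Skeletal muscle markers, 6 of 6 with a lower mean in white adipose tumours (median -0.78), averaged 5.45 to 5.75 there, against 6.54, 5.56 and 7.40 in non-adipose replicates 1 to 3, and Ckm, at -0.52 (SE 0.18), was the 1 of them at an unadjusted p under 0.05. Neutrophil markers averaged 4.90 to 5.32 in white adipose and 4.90 to 5.85 in non-adipose tumours; 1 of 7 was higher by mean and 6 were lower. The part of these cells in the members' values was not tested. By signal the tumour epithelial markers were spread widely among all genes. Krt8 lay at percentile 96.1, Krt18 at 94.9 and Cdh1 at 66.9, while Cldn4 lay at 49.15, Krt19 at 43.0 and Epcam at 29.1. Whether any of them marks the colorectal cancer cells in these tumours was not tested. Adipoq, the adipocyte hormone gene, lay at percentile 15.6 and differed by 0.028 (SE 0.067) between the sites, and adipocyte markers averaged 5.21 to 5.73 in white adipose and 5.39 to 5.55 in non-adipose tumours. B cell markers (3 of 6 higher, median -0.068), plasmacytoid dendritic cell markers (3 of 4 higher, median 0.13), endothelial markers (3 of 6 higher, median -0.005) and tumour epithelial markers (6 of 6 higher, median 0.12) held 1 gene at an unadjusted p under 0.05, the endothelial Cldn5 at 0.21 (SE 0.074). Tumour epithelial markers averaged 7.51, 6.97 and 7.09 in white adipose replicates 1 to 3, against 7.0, 7.09 and 7.12 in non-adipose replicates 1 to 3. Only white adipose replicate 1 lay above the non-adipose tumours.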

How the data were processed

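Total RNA of 6 tumours was labelled and hybridised to 6 Affymetrix arrays. The deposited table holds 41345 probe sets; the authors' values are taken as log2 signals because they run from 0.973 to 13.6 with array medians of 5.66 to 5.69. Per the submitters' processing notes the software was Affymetrix Expression Console; neither its version nor the normalization, nor any batch of arrays, is given in the sources used here. Probe sets with exactly 1 gene symbol were kept (23521), and per gene the one with the highest mean, which left 22180 genes. White adipose was compared with non-adipose by limma 3.58.1 (lmFit and eBayes without a block, R 4.3.3), with Benjamini-Hochberg adjustment over the 22180 genes. The number of arrays limits the precision: over all genes the median half-width of a 95% interval was 0.24. Among the members only Prf1 had a narrower interval, from -0.045 to 0.28. The widest, that of Nkg7, ran from -0.92 to 0.93, and that of Gzma from -0.50 to 0.73. The fit was tested on simulated data whose values were drawn independently for each gene and array. Variation that genes of the same tumour share was not simulated, so that test does not cover it. Array correlations across genes ran from 0.983 to 0.995.

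The members, the pathway and marker lists (201 genes, 183 measured), the motifs and the alternatives were chosen with earlier results of these data known. Genes outside the members are named by a rule: up to 2 with the smallest p of each list, and 12 fixed genes; Cd52 and its neighbours by highest correlation with the members' average. The tumour epithelial markers and Adipoq are given by signal to describe the tissue. Same-numbered tumours were checked for pairing: their deviations from the site means correlated at 0.14, 0.064 and 0.064, so the numbers were not taken as pairs. Protein sequences of the granzymes, planned at first, were not used here; promoter windows are shown in their place.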

Additional observations from a re-analysis of the deposited data

How the results depend on the processing

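Of the alternatives tried, 9 changed the scaling, variance model, filter, probe set rule or pairing and 6 left out 1 tumour each. In all of them limma called 0 genes at an adjusted p of 0.05, and no member came below an adjusted p of 0.664. The count of genes at an unadjusted p under 0.05, 841 as reported, was 1621 with array weights and 1800 without white adipose replicate 1. It was 593 with dim genes left out, where fewer genes were tested, and 882 over every probe set, where more were. Those 2 counts are not comparable with 841 as they stand. The remaining settings gave 640 to 1174. The median difference of the members, 0.032 as reported, was between 0.011 and 0.13 under the 9 and between -0.064 and 0.16 with 1 tumour left out. With the replicate block it was 0.032, with 1081 genes at an unadjusted p under 0.05, and of the same-numbered tumours only those numbered 1 were each closest to the other.

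Of 146 member values under these alternatives, 21 had the opposite sign, 17 of them among the 60 with 1 tumour left out. Nkg7 became -0.016 with array medians subtracted and -0.01 after quantile normalization; with array weights Gzmb became 0.001 and Gzmk 0.079. With 1 tumour left out Gzma ran from -0.03 to 0.38, Gzmb from -0.23 to 0.06, Gzmk from -0.23 to 0.15, Nkg7 from -0.23 to 0.42, Ncr1 from -0.12 to 0.033, Ifng from -0.018 to 0.22 and Fasl from -0.081 to 0.23. Prf1, Klrb1c and Klrk1 kept their sign in each alternative that held them. The filter on dim genes kept 6 of the 10 members, so the other 4 have no value there. The cause of these moves was not tested.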
